A study of Mus musculus with 9 samples.

Results

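The 10 genes described here encode subunits of voltage-gated calcium channels, and they were taken by name from the 54532 genes of the count table. They are Cacna1a, Cacna1b, Cacna1c, Cacna1d, Cacna1e, Cacna1g, Cacna1h and Cacna1i, which encode pore subunits of neuronal channels, and Cacna2d1 and Cacna2d2, which encode alpha2delta subunits. Hippocampal RNA was sequenced from 9 N4 Ube3am-/p+ mice, 5 given Ant-134 and 4 given Scr, and all 10 genes were among the 19782 that passed the filter on low counts. Ant-134 is an antagomir, a modified oligonucleotide that binds and blocks miR-134, and Scr is its scrambled control. Each mouse received 0.5 nmol into the cerebral ventricles on postnatal day 21, underwent audiogenic seizure induction on days 22, 24 and 26, and was killed 24 h after the last test. One hippocampus, from the injected side, gave 1 library. All 9 mice carry the maternal Ube3a mutation that models Angelman syndrome, on a 129Sv/Ev background reached by repeated backcrossing, and none of them is wild-type, untreated or free of seizure induction. The sex of these mice was not recorded in the labels. The comparison asks whether hippocampal transcripts differ between Ant-134 and Scr mice after repeated seizure induction. The paper reports less severe seizures with Ant-134 and a tendency toward better survival. Effects of the oligonucleotide on transcripts and effects of a different seizure burden therefore cannot be told apart here.

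Voltage-gated calcium channels open when the membrane depolarizes and let calcium into the neuron, where it triggers transmitter release, shapes firing and signals to the nucleus. The pore subunit sets the channel type. Cav1 pores (L-type; Cacna1c and Cacna1d) couple activity to gene transcription, Cav2 pores (P/Q-, N- and R-type; Cacna1a, Cacna1b and Cacna1e) drive release at presynaptic terminals and also act in dendrites, and Cav3 pores (T-type; Cacna1g, Cacna1h and Cacna1i) open near rest and favour burst firing. The alpha2delta subunits bind the outer face of Cav1 and Cav2 channels and raise their number at the membrane. Cacna2d1 and Cacna2d2 encode the proteins to which gabapentin and pregabalin bind.

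Because the groups differed in whether they were given the oligonucleotide against miR-134, the 3' UTRs of the 10 genes were searched for miR-134 seed matches. These mRNA libraries do not measure mature miR-134 itself. Mature miR-134-5p, given from RefSeq for GRCm38.p6 at chr12:109734145-109734166 on the plus strand, is shown with its seed, bases 2 to 8, in capitals. A site was CAGTCAC, which pairs with bases 2 to 8, or AGTCACA, which pairs with bases 2 to 7 and is followed by A. Where both overlap they form the 8-base site CAGTCACA. Only the transcript strand of the longest annotated 3' UTR was read, and the 6 sites found in GRCm38 lie in Cacna1b, Cacna1c, Cacna1d, Cacna1e and Cacna2d1. They are shown as transcript sequence with the match in capitals, to set the members that carry a match beside their values.
miR-134-5p: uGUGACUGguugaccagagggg
Cacna1b site (chr2:24605938-24605967, minus strand): attctggttttCAGTCACAacactttcact
Cacna1c site (chr6:118591831-118591859, minus strand): gagctggtgagCAGTCACtggatggaact
Cacna1d site (chr14:30041718-30041746, minus strand): aaaggtgatgaCAGTCACcacgcctgtgt
Cacna1e first site (chr1:154394176-154394205, minus strand): atgtaggtgacCAGTCACAgcgtgatgatt
Cacna1e other site (chr1:154393687-154393715, minus strand): tatcccagagaAGTCACAtgacaccaaaa
Cacna2d1 site (chr5:16372650-16372678, plus strand): agaaatgacatCAGTCACcacttctaatg

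The 2 sites of 8 bases are in the genes for the N-type and R-type pores. The Cacna1b site starts 614 bases after the stop codon in a 3' UTR of 2683 bases, and the first Cacna1e site starts at base 4199 of 7662. Cacna1e also holds the only AGTCACA match without the preceding C, at base 4689. The other 3 sites, all CAGTCAC, start at base 2044 of 6652 in Cacna1c, base 338 of 2132 in Cacna1d and base 1987 of 3837 in Cacna2d1. No match was found in the 3' UTRs of Cacna1a (538 bases), Cacna1g (754 bases), Cacna1h (1818 bases), Cacna1i (2620 bases) and Cacna2d2 (1879 bases). Thus both Cav1 genes and 2 of the 3 Cav2 genes had a match, and the 3 Cav3 genes had none. A match was present in 5 of the 10 members (50%), in 19.5% of the 15267 tested genes with an annotated 3' UTR and in 24.5% of the 10989 whose 3' UTR lies in the range of the members', between 538 and 7662 bases. That set is not matched in length, since its median 3' UTR was 1665 bases and that of the members 2376 bases. Among the 28 other channel subunit and partner genes described further on, 3 had a match. These are matches of letters and were not tested for binding.

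**Figure D1:**
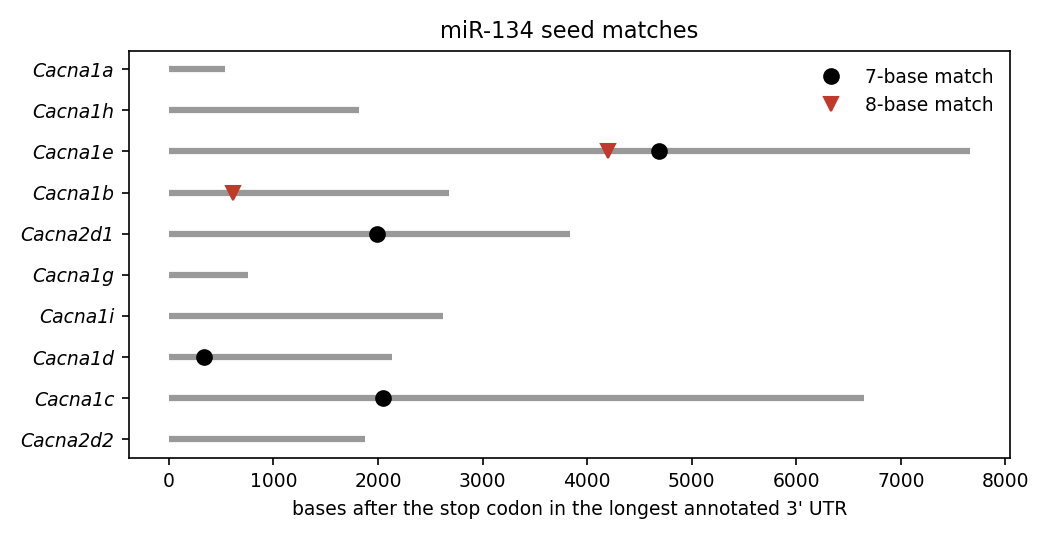
Position of each miR-134 seed match (x axis, bases after the stop codon) along the longest annotated 3' UTR (grey bar) of the 10 genes, with circles for 7-base and triangles for 8-base matches. The 6 matches fall in the 5 genes Cacna1e, Cacna1b, Cacna2d1, Cacna1d and Cacna1c, and the other 5 bars carry none.

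None of the 10 calcium channel genes passed the test between Ant-134-treated and Scr-treated mice. With edgeR's quasi-likelihood test, 0 of 10 had an unadjusted p value below 0.05, the threshold of the study, against 827 of all 19782 genes tested (4.18%). DESeq2, run without that filter, also called 0 of 10 at that threshold, against 2.74% of its 37435 genes. Among the 19782 genes that passed the filter, DESeq2 called 847. After Benjamini-Hochberg adjustment over all genes, edgeR called 0 of the 10 and 0% of all genes, and the lowest adjusted value among the 10 was 0.998. Unadjusted p values in edgeR ran from 0.174 to 0.964. CPM values (counts scaled to the TMM-normalised library size) of the groups overlapped for all 10 genes, whereas they did not overlap for 1.54% of all genes. Fold changes are given as Ant-134 over Scr, so that positive values mean a higher level with Ant-134. The estimates were positive for 4 members and negative for 6, with a median log2 fold change of -0.0066, beside 0.0026 over all genes tested. The median of the 10 ran from -0.018 without Ant-134 replicate 3 to 0.017 without Ant-134 replicate 1. They ran from -0.074 for Cacna1g to 0.071 for Cacna1b. Of the 95% intervals, the lowest bound was a change of -13.7% (Cacna2d2) and the highest 14.1% (Cacna1b).

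**Figure D2:**
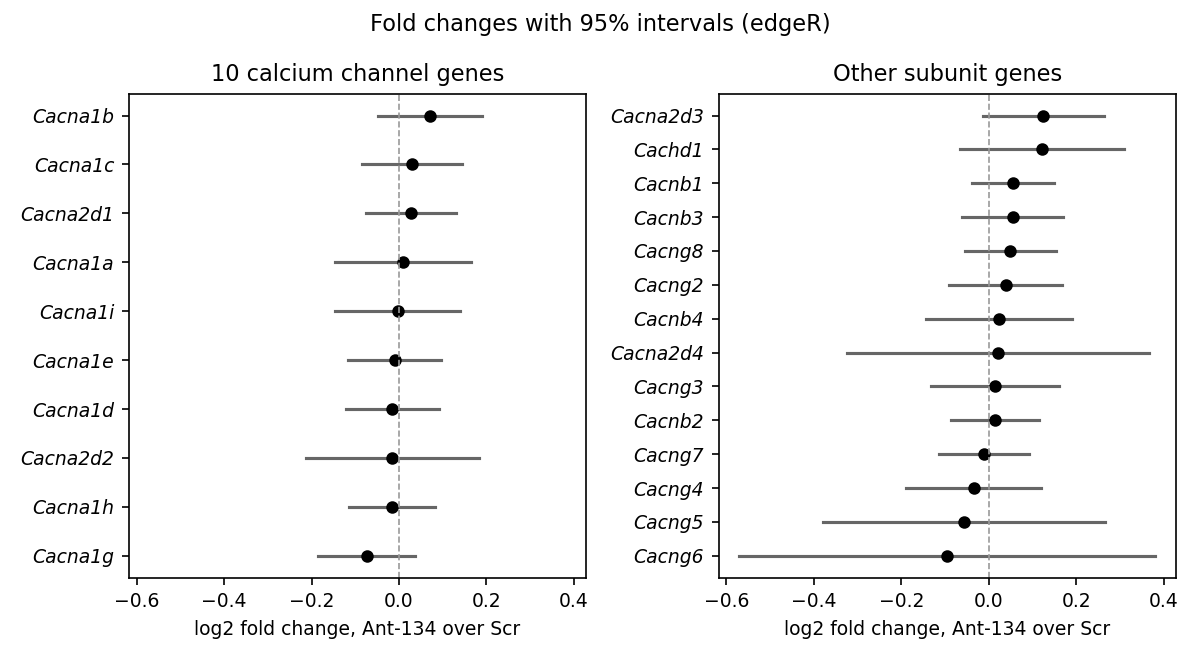
Log2 fold change of Ant-134 over Scr (x axis) with its 95% interval from edgeR, for the 10 calcium channel genes (left) and for the tested genes of the other alpha2delta, beta and gamma lists (right). Every interval includes 0, and the 10 estimates lie between -0.074 and 0.071.

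Of the Cav2 genes, Cacna1e had the highest CPM of the 10 members, and it also has the largest summed exon length of them. Cacna1e (chr1:154390731-154884501), the R-type pore, had 390, 404, 423, 462 and 401 CPM in the Ant-134 mice and 421, 412, 412 and 431 CPM in the Scr mice. The highest and the lowest mouse were both in the Ant-134 group, and all 4 Scr mice lay between them. Its log2 fold change was -0.010 ± 0.050 (SE; exact permutation p = 0.881), with a 95% interval from a change of -7.80% to 6.96%, and it carries 2 of the 6 seed matches. Cacna1a (chr8:84388440-84640246), the P/Q-type pore, had 212, 223, 266, 240.3 and 199 CPM with Ant-134 and 242, 223, 220.1 and 221 CPM with Scr. The spread within the Ant-134 group was the widest of the members there, with a coefficient of variation of 11.4% against 4.504% in the Scr group. The log2 fold change of Cacna1a was 0.0095 ± 0.072 (SE; exact permutation p = 0.929). It was -0.052 without Ant-134 replicate 3, the mouse at 266 CPM. Cacna1b (chr2:24603887-24763152), the N-type pore, had 151, 164, 160, 178 and 149 CPM with Ant-134 and 161, 145, 146 and 158 CPM with Scr. The groups overlapped, with 2 Ant-134 mice above the highest Scr mouse and 2 Scr mice below the lowest Ant-134 mouse. The Cacna1b estimate of 0.071 ± 0.056 (SE) on the log2 scale was the highest of the 10, with p = 0.333 in the two-sided exact permutation test. Ant-134 replicate 4, at 178 CPM, decided much of it, since the log2 fold change was 0.029 without that mouse.

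The Cav1 genes had no difference that passed. Cacna1c (chr6:118587240-119196418), the L-type pore that predominates in brain, had 125.6, 125, 128, 145 and 120.4 CPM in the Ant-134 group and 128, 132, 120.0 and 125 CPM in the Scr group. All Ant-134 mice but 1 lay within the range of the Scr mice. Its log2 fold change was 0.029 ± 0.054 (SE; exact permutation p = 0.714), and -0.019 without Ant-134 replicate 4, the mouse at 145 CPM. Cacna1d (chr14:30039939-30491455), the L-type pore that opens at more negative voltages, had 72.9, 75.3, 80.3, 86.0 and 75.5 CPM with Ant-134 and 81.4, 77.6, 77.7 and 78.7 CPM with Scr. Here 3 Ant-134 mice lay below every Scr mouse and 1 above all of them. The Cacna1d log2 fold change of -0.015 ± 0.050 (SE; exact permutation p = 0.746) became -0.054 without replicate 4.

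Of the Cav3 genes, Cacna1g had the smallest p value of all 10 members, which did not pass. Cacna1g (chr11:94408391-94474198), the T-type pore known for burst firing, had 102, 117, 101, 115 and 114 CPM with Ant-134 and 115, 118, 118 and 110.1 CPM with Scr. Ant-134 replicates 1 and 3 were below all Scr mice, and the other 3 lay within the Scr range. The log2 fold change was -0.074 ± 0.052 (SE), with an exact permutation p = 0.254, and its 95% interval ran from a change of -12.0% to 2.57%. The estimate stayed negative in all 9 fits that each left out 1 mouse, between -0.099 and -0.047. Cacna1h (chr17:25374285-25433783), the T-type pore blocked by low nickel, had 186, 192, 192, 190.3 and 193 CPM with Ant-134 and 185, 210.5, 181 and 195 CPM with Scr. All 5 Ant-134 mice fell between the lower pair and the higher pair of Scr mice, and their coefficient of variation of 1.42% was close to the mean counting error of 1.25%. The log2 fold change of Cacna1h was -0.016 ± 0.046 (SE; exact permutation p = 0.786). Cacna1i (chr15:80287238-80398279), the T-type pore with the slowest kinetics, had 82.0, 93.9, 83.0, 97.1 and 85.1 CPM with Ant-134 and 93.5, 77.2, 88.9 and 94.2 CPM with Scr, and its log2 fold change was -0.0031 ± 0.067 (SE; exact permutation p = 0.944). The groups covered nearly the same range. Deviations from each gene's own mean were set beside those of Cacna1g, for 35 genes of the family and its partners over the 9 mice. The smallest root mean square differences were those of Cacna1h, Cacna2d1 and Cacna1d, at 0.092, 0.092 and 0.097 on the log2 CPM scale. This measure favours genes that vary little, so a small value does not show a shared pattern.

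The 2 alpha2delta genes differed in level and in spread. Cacna2d1 (chr5:15934691-16374511), the more abundant, had 182, 198, 193, 211 and 183 CPM with Ant-134 and 191, 183, 194 and 191 CPM with Scr. Ant-134 mice lay both above and below the Scr mice. The log2 fold change was 0.027 ± 0.048 (SE; exact permutation p = 0.667), and -0.0080 without Ant-134 replicate 4. Cacna2d2 (chr9:107399612-107529343), whose loss causes ataxia and absence seizures in mice, had 27.4, 29.4, 29.7, 28.5 and 28.3 CPM with Ant-134 and 24.9, 24.6, 32.6 and 33.9 CPM with Scr. All Ant-134 mice fell in the gap between the lower pair and the higher pair of Scr mice. The coefficient of variation was 3.28% with Ant-134, close to the mean counting error of 3.24%, and 17.0% with Scr. The log2 fold change of Cacna2d2 was -0.016 ± 0.092 (SE; exact permutation p = 0.849), the largest standard error of the 10. Summed over 6 interneuron markers (Gad1, Gad2, Slc32a1, Sst, Pvalb and Vip), the same Scr mice had 641, 637, 687 and 754 CPM, in the order of replicates 1 to 4, and the Ant-134 mice had 686, 724, 639, 685 and 762 CPM, in the order of replicates 1 to 5. The Scr mice with the lower Cacna2d2 also had the lower marker sums, whereas among the Ant-134 mice the lowest marker sum was in the mouse with the highest Cacna2d2. The part of interneuron content in the Cacna2d2 values was not tested. In bulk hippocampus, fewer cells of a type and less RNA per cell cannot be told apart.

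Levels of different genes were compared per length, as deposited FPKM (fragment counts scaled by gene length and library total), over all 9 mice. The order of means was Cacna1a (19.7 ± 1.68 FPKM, SD, n = 9), Cacna1h (19.5 ± 0.811), Cacna1e (16.4 ± 0.800), Cacna1b (15.6 ± 1.04), Cacna2d1 (15.3 ± 0.715), Cacna1g (10.95 ± 0.641), Cacna1i (8.87 ± 0.685), Cacna1d (6.15 ± 0.296), Cacna1c (5.97 ± 0.346) and Cacna2d2 (3.59 ± 0.385). The same order held for the means of each group. P/Q-type Cacna1a and T-type Cacna1h were not separated, since their ranges overlapped and Cacna1a was the higher in 4 of 9 mice. Cacna1e, Cacna1b and Cacna2d1 overlapped their neighbours in the order, as did the L-type genes, with Cacna1d above Cacna1c in 6 of 9 mice. The other steps, from Cacna1h to Cacna1e, from Cacna2d1 to Cacna1g, Cacna1g to Cacna1i, Cacna1i to Cacna1d and Cacna1c to Cacna2d2, held in all 9 mice without overlap of the ranges, on the deposited length. The gene length used by the authors counts all annotated exons, between 7947 and 25228 bases for these genes. Dividing instead by the longest coding transcript, an alternative chosen after seeing the data, kept Cacna1a first and Cacna2d2 last but moved Cacna1h from rank 2 to 4, Cacna2d1 from 5 to 3 and Cacna1c from 9 to 7. On that length Cacna1i and Cacna1d were both at 8.94 on the FPKM scale, so the ranks of several members depend on the length chosen.

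**Figure D3:**
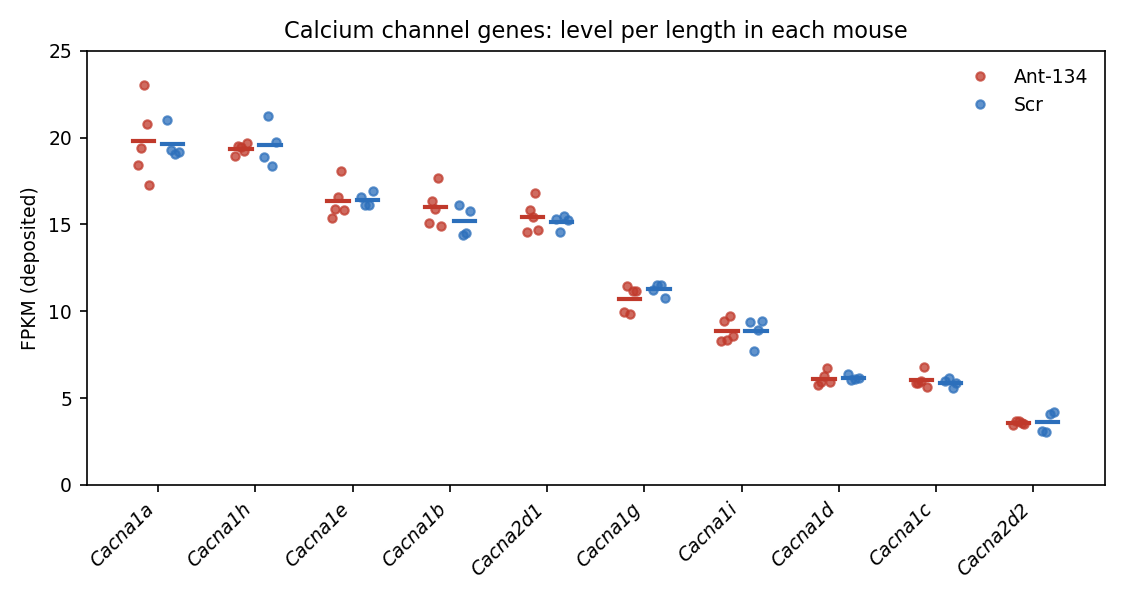
Deposited FPKM (y axis) of the 10 genes in each mouse, with Ant-134 in red and Scr in blue and horizontal lines at the group means. The means fall from 19.7 FPKM for Cacna1a to 3.59 FPKM for Cacna2d2, and the points of both groups overlap for every gene.

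Summed over the 8 pore genes, Cav2 transcripts made up 50.1 ± 1.32% of FPKM (SD, n = 9), Cav3 transcripts 38.1 ± 1.38% and Cav1 transcripts 11.8 ± 0.253%. The Cav2 share was 48.5 to 52.7% with Ant-134 and 48.6 to 50.8% with Scr. The Cav3 share was 35.7 to 39.8% with Ant-134 and 37.4 to 39.5% with Scr, and the Cav1 share was 11.3 to 12.3% and 11.6 to 11.9%. For all 3 families the Scr range lay inside the Ant-134 range. With the longest coding transcript as the length, the shares were 53.0% for Cav2, 33.3% for Cav3 and 13.6% for Cav1, in the same order. Within families, Cacna1h was 1.78 ± 0.120 times Cacna1g in FPKM (SD, n = 9), Cacna1c was 0.971 ± 0.038 times Cacna1d, and Cacna2d1 was 4.30 ± 0.441 times Cacna2d2. The order of Cacna1c and Cacna1d turned with the longest coding transcript as the length, with a level of 9.61 ± 0.557 for Cacna1c and 8.94 ± 0.430 for Cacna1d (SD, n = 9), on the FPKM scale. Each of the 3 FPKM ratios overlapped between the groups, with Cacna2d1 over Cacna2d2 at 4.15 to 4.75 with Ant-134 and 3.62 to 4.92 with Scr.

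**Figure D4:**
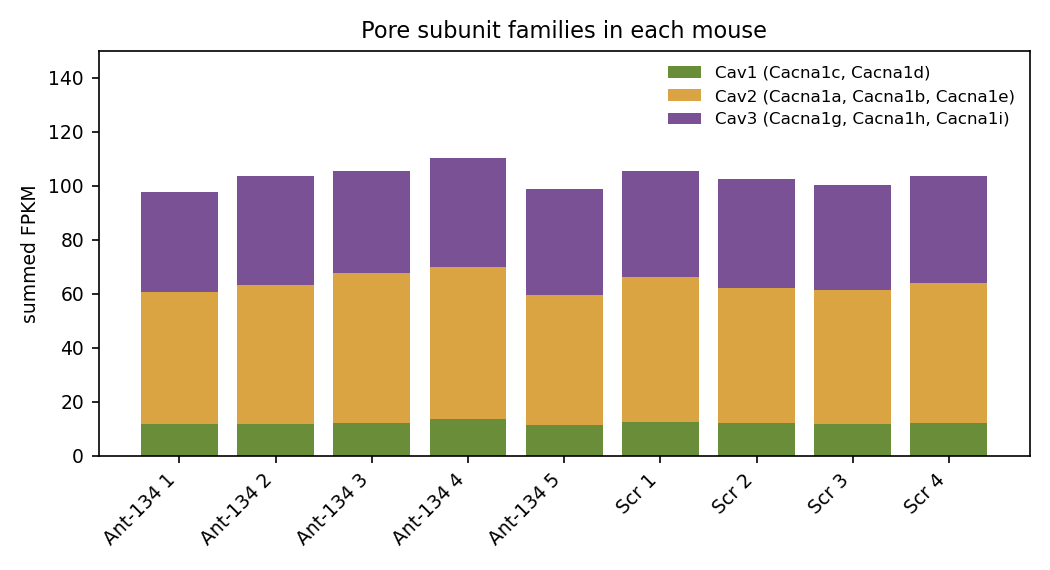
Summed FPKM (y axis) of the Cav1, Cav2 and Cav3 pore genes, stacked for each of the 9 mice. The Cav2 part takes between 48.5 and 52.7% of every bar and the Cav1 part between 11.3 and 12.3%, with no separation of Ant-134 from Scr mice.

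The members with a miR-134 seed match had a median log2 fold change of 0.027, from -0.015 for Cacna1d to 0.071 for Cacna1b. Those without a match had a median of -0.016, from -0.074 for Cacna1g to 0.0095 for Cacna1a. The ranges of these 5 and 5 genes overlapped, and the difference between them was not tested. Without Ant-134 replicate 4 the medians were -0.019 with a match and -0.017 without one. Of the genes with an 8-base match, Cacna1b had a positive estimate and Cacna1e a negative one, and neither passed the test.

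Other genes of the channel complex were followed from a list of 28, of which 26 were tested. The skeletal muscle genes Cacna1s (1 to 17 counts per mouse) and Cacng1 (0 to 5 counts) were too low. With edgeR, 0 of the 26 passed the unadjusted threshold, and 0 with DESeq2. Over all genes edgeR called 4.18%, and DESeq2 called 847 of the same 19782 genes. The estimates were positive for 15 and negative for 11 genes, with a median of 0.013 on the log2 scale, which was -0.018 without Scr replicate 2 and 0.029 without Scr replicate 3. The smallest p value was that of Cacna2d3, another alpha2delta gene, with 112, 124, 129, 121 and 103 CPM in the Ant-134 mice and 110.1, 97.9, 109 and 115 CPM in the Scr mice. Above all Scr mice lay 3 Ant-134 mice, and the other 2 lay within the Scr range. Its log2 fold change was 0.12 ± 0.065 (SE; exact permutation p = 0.151; edgeR adjusted p = 0.998). It passed the unadjusted threshold in edgeR without a filter on low counts, and in 2 of the 9 fits that left out a mouse. In those 2 fits its log2 fold change was 0.17 without Ant-134 replicate 5 (adjusted p = 0.997, edgeR) and 0.16 without Scr replicate 4 (adjusted p = 0.958, edgeR). The lowest value of the 9 fits was 0.079, without Scr replicate 2. Next came Cachd1, which encodes an alpha2delta-like protein, at 0.12 ± 0.087 (SE; exact permutation p = 0.302), and Rimbp2, which encodes a protein that tethers presynaptic calcium channels to the release site, at -0.073 ± 0.053 (SE; exact permutation p = 0.286). All 3 tested genes of the other alpha2delta list had positive estimates, none of which passed.

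Beta subunits bind the inner side of Cav1 and Cav2 pores and bring them to the membrane. Their genes, all 4 tested, had log2 fold changes between 0.013 (Cacnb2) and 0.055 (Cacnb1), with the smallest p value at 0.231 in edgeR. Per length, Cacnb3 led with 53.4 ± 3.35 FPKM (SD, n = 9), followed by Cacnb1 with 32.6 ± 1.45 FPKM, Cacnb4 with 12.4 ± 1.12 FPKM and Cacnb2 with 4.32 ± 0.164 FPKM. Both leading beta genes were above every pore gene, on this length. The gamma genes include those of the TARPs, which carry AMPA receptors rather than calcium channels to synapses. Cacng8 (62.1 ± 3.12 FPKM) and Cacng7 (51.5 ± 2.42 FPKM) were the highest of them, ahead of Cacng3 (18.6 ± 1.43), Cacng2 (10.8 ± 0.721), Cacng4 (10.4 ± 0.862), Cacng5 (4.75 ± 0.811) and Cacng6 (1.67 ± 0.437). None of the 7 tested gamma genes passed, with log2 fold changes from -0.095 for Cacng6 to 0.049 for Cacng8 and p values of at least 0.328 in edgeR. Among the 11 partner genes, 5 estimates were positive and 6 negative, and 0 passed.

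Variation between mice was shared by several members. Ant-134 replicate 4 held the highest CPM of 6 of the 10 genes, namely Cacna1b, Cacna1c, Cacna1d, Cacna1e, Cacna1i and Cacna2d1. Over the 10 genes, its median deviation from each gene's own mean was 0.14 on the log2 CPM scale. In Ant-134 replicate 1, by contrast, none of the 10 genes was above its own mean, and the median deviation was -0.085. The other Ant-134 mice had medians of 0.022, 0.016 and -0.054 for replicates 2, 3 and 5. In the Scr mice they were 0.024, -0.019, -0.014 and 0.011, so that the Ant-134 group spread on both sides of the Scr group. All 10 genes are long, and over the 2716 tested genes at least as long as the shortest member the median deviation was 0.072 in Ant-134 replicate 4, -0.025 in replicate 1 and -0.051 in replicate 5, and between -0.026 and 0.023 in the Scr mice. The part of gene length or RNA quality in the values of these mice was not tested.

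**Figure D5:**
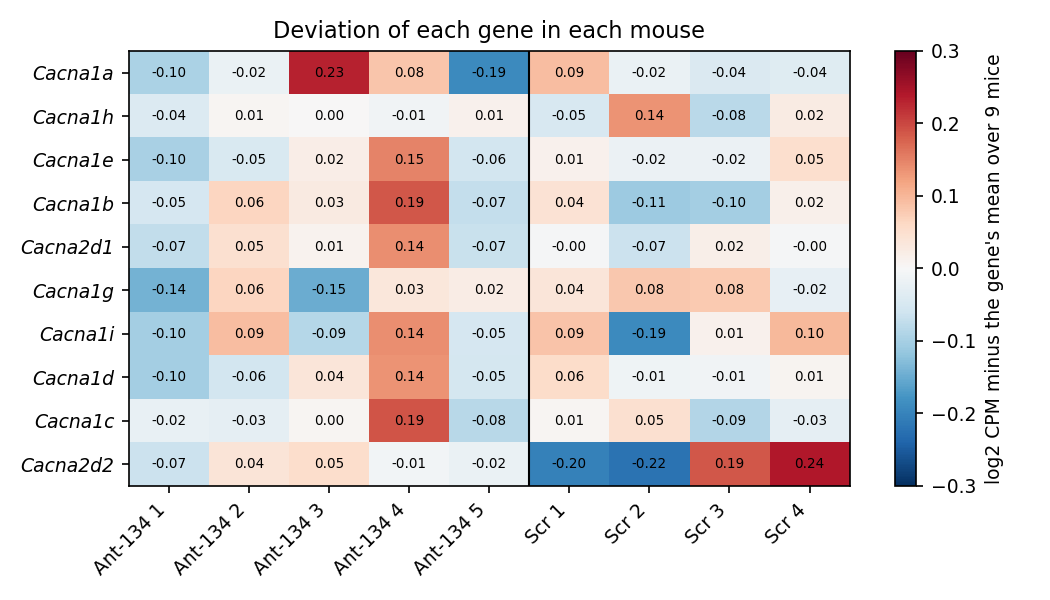
Deviation of each gene from its mean over the 9 mice (colour and printed value, log2 CPM), with genes in rows by level and mice in columns, Ant-134 left of the line and Scr right of it. Ant-134 replicate 4 is the column with the highest median, 0.14, and in the rows of Cacna2d2 and Cacna1h 2 Scr mice lie below and 2 above every Ant-134 mouse.

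Counts behind these values ranged from 794 (Cacna2d2) to 17416 (Cacna1e) per gene and mouse, in libraries of 28583298 to 41978113 counted reads. Counting error, averaged over the mice of both groups, was between 0.849% (Cacna1e) and 3.24% (Cacna2d2) of the mean. For Cacna2d2 in the Ant-134 group, the coefficient of variation of 3.28% cannot be told apart from counting error. For the other members this error was below the coefficient of variation in each group. Markers of CA1, CA3 and dentate granule neurons were found in every library, with summed levels of 566 to 683, 109 to 129 and 160 to 209 CPM. Ube3a mRNA was at 85.6 to 100.4 CPM with Ant-134 and 87.6 to 96.6 CPM with Scr, and this count does not separate the mutant maternal from the paternal allele. Summed over 6 microglia markers, Ant-134 mice had 326 to 347 CPM and Scr mice 365 to 419.6 CPM, with 2 of the 6 (Csf1r and C1qa) called lower in edgeR, as were 2.69% of all genes tested. Called higher, as were 1.49% of all genes, were 1 of 4 dentate granule markers (Dsp) and 1 of 6 thalamus markers (Lef1). Thalamus markers, 6 genes, summed to 175 CPM in Ant-134 replicate 3, the mouse with the highest Cacna1a and the lowest Cacna1g, and to between 103 and 134 CPM in the other 8. Choroid plexus markers, 6 genes, ranged from 66.6 to 2561 CPM with Ant-134 and from 78.9 to 2018 CPM with Scr. The part of these cell types in the calcium channel values was not tested. Exons of 4 members overlap a gene on the opposite strand, with 3.81% of the exonic bases of Cacna1a shared with Gm16183, 4.67% of Cacna1d with Chdh, 1.62% of Cacna1h with Tpsg1 and 1.03% of Cacna2d2 with Gm17141. The sources used here do not state whether the counting used strand, so reads from these stretches cannot be told apart.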

How the data were processed

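RNA from the hippocampus of 5 Ant-134 and 4 Scr mice, 1 library per mouse, was sequenced by the authors from poly-A-selected mRNA. Per the paper and the submitters' processing notes, which also name CASAVA 1.8, reads were mapped to GRCm38 (mm10) with HISAT2 2.0.5 and counted with featureCounts 1.5.0-p3. The strand setting and annotation release are not given in the sources used here. The authors deposited raw counts per gene and FPKM, which is counts scaled by gene length and library total. Groups came from the sample labels.

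Counts were analysed in R 4.3.3 with edgeR 4.0.16 (filterByExpr with a minimum count of 10, TMM, robust quasi-likelihood test, no covariate), with Benjamini-Hochberg adjustment over 19782 genes. A gene was called at an unadjusted p value below 0.05. Standard errors were computed from the F statistic. Exact permutation tests were two-sided over all splits of the mice into 5 and 4, with 0.00794 as the smallest possible p. Each mouse is a replicate, so p values measure the spread between mice. The script was tested on simulated data. Alternatives were DESeq2 1.42.0, its size factors in edgeR, other filters, no robust estimation, a replicate block, a covariate of Y-linked genes, leaving out each mouse, and limma 3.58.1 on log2 FPKM after adding 1 or 0.1.

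The members and lists were chosen with earlier results of these data known. Named are all 10 members, the 3 other subunit or partner genes with the smallest p, and the beta and gamma genes by level. Also named are the 3 genes with the smallest root mean square difference from the member with the smallest p. Positions and 3' UTRs came from GENCODE M21. A comparison of the proteins had been planned and was not run.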

Additional observations from a re-analysis of the deposited data

Results flagged for a closer look

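In groups of 4 or 5 mice, 7 of 112 sets of values held 1 mouse far from the others, where chance gives about 1 in 20, or 5.6. Of the members, Cacna1a was at 242 CPM in Scr replicate 1, against 220.1 to 223 CPM in the other Scr mice. Cacnb3, a beta subunit gene, was at 247 CPM in Ant-134 replicate 5, against 210.2 to 218 CPM in the other Ant-134 mice.

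The other 5 sets were marker sums. In Ant-134 replicate 3, thalamus markers summed to 175 CPM, against 103 to 109 CPM in the rest of its group. Choroid plexus markers in Ant-134 replicate 1 summed to 2561 CPM, against 66.6 to 677 CPM. Activity-regulated genes in Ant-134 replicate 5 summed to 588 CPM, against 393 to 436 CPM. Scr replicate 1 had both the highest microglia marker sum of its group, 419.6 CPM against 365 to 373 CPM, and the lowest sum of the cerebellum markers, 47.0 CPM against 58.4 to 59.2 CPM. Most of that sum is Calb2, which hippocampal interneurons also express.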

How the results depend on the processing

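The count of members called, 0 higher and 0 lower, held under all 10 alternative settings and all 9 fits without 1 mouse, where the smallest p value of a member was 0.086 in edgeR (Cacna1g without Ant-134 replicate 2). The sign of a member's log2 fold change turned in some settings, with no estimate past the threshold. With DESeq2 Cacna1i was at 0.0015, and with limma on log2(FPKM + 0.1) Cacna2d2 was at 0.0012. The replicate numbers gave no sign of pairing, since the correlations of same-numbered deviations were -0.115, -0.070, -0.022 and 0.012. Those of different-numbered mice ran from -0.222 to 0.240, so this check cannot exclude pairing. With the replicate block, Cacna1e was at 9.66e-05, Cacna1i at 0.010 and Cacna2d2 at 0.0040, and 2 other subunit genes were called higher, Cacna2d3 at 0.17 and Cachd1 at 0.16 (adjusted p = 0.996 for both, edgeR). Over all genes the block gave 342 higher and 466 lower calls, beside 294 and 533 without it. Without a filter on low counts 1 gene of the other subunits and partners, Cacna2d3, was called higher, beside 564 of all 37454 genes in that setting.

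Leaving out 1 mouse moved the log2 fold change of Cacna1a between -0.052 and 0.055, Cacna1c between -0.019 and 0.053, Cacna1d between -0.054 and 0.0078, Cacna1e between -0.052 and 0.012, Cacna1h between -0.045 and 0.028, Cacna1i between -0.064 and 0.030, Cacna2d1 between -0.0080 and 0.048, and Cacna2d2 between -0.088 and 0.068. Cacna1b stayed positive, between 0.029 and 0.096. The median of the 10 ran between -0.018 and 0.017, and was 0.0071 with the replicate block. That of the other subunits and partners ran between -0.018 and 0.029. In the list of other subunits and partners the calls varied between 0 and 1 higher (Cacna2d3 or Cabp1) and between 0 and 1 lower (Rimbp2 without Ant-134 replicate 3). Over all genes, 321 of 19637 were called higher without Ant-134 replicate 5 and 286 of 20062 without Scr replicate 1. Without Scr replicate 4, 386 of 20089 were called higher, and without Ant-134 replicate 3, 513 of 19593 were called lower. The causes were not tested. Dividing by the longest coding transcript, an alternative chosen after seeing the data, gave shares of 13.6% for Cav1, 53.0% for Cav2 and 33.3% for Cav3, by its construction. Counting error covers reads, which are not independent molecules, and 5 against 4 mice limit what differences can be seen.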
